A study of Mus musculus with 4 samples.

Results

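The 10 genes described here carry MHC class I antigen presentation: the heavy chains H2-K1 and H2-D1, their light chain B2m, the peptide transporter and loading genes Tap1, Tap2 and Tapbp, the immunoproteasome subunits Psmb8, Psmb9 and Psmb10, and Nlrc5, a regulator of this gene group. They were chosen by symbol, and all 10 were found among the 31053 genes of the count matrices. Their levels were compared across cell types of the liver in 4 libraries of single-cell RNA-sequencing, which came from C57BL/6 mice of 8 to 10 weeks of age. Naïve mice had no concanavalin A (ConA), a plant lectin that activates T cells and causes hepatitis, which all of the other 3 groups received. It was followed by vehicle (ConA+Veh) or by the dioxin TCDD (ConA+TCDD), and the last group is labelled as given ConA and FICZ (ConA+FICZ). TCDD and FICZ are both ligands of the aryl hydrocarbon receptor (AhR), a transcription factor that is activated by binding a ligand. Mononuclear cells were prepared from the liver 24 hours after ConA by enzymatic dissociation and a Percoll gradient. Each group was 1 library, and the sources used here do not give the number of mice behind it or the dose of FICZ.

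MHC class I molecules sit on the surface of nearly all nucleated cells and show peptides from the cell's own proteins to CD8 T cells. Proteasomes cut the proteins, the transporter made of TAP1 and TAP2 carries the peptides into the endoplasmic reticulum, and tapasin (Tapbp) holds empty class I molecules at that transporter until a peptide fits. Interferon-gamma, which activated T and NK cells release, exchanges the standard catalytic subunits of the proteasome for the immunoproteasome subunits and raises class I transcription, and NLRC5 acts on the class I promoters together with factors bound to their X and Y boxes. In the liver, hepatocytes and endothelial cells carry little and much class I, respectively, and NK cells are kept in check by class I on the cells they meet.

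The promoters are printed first, since 5 of the 10 genes hold the letters of an X2 box there and since the sequence shows how alike the heavy chain genes are. In GRCm38, 8 of the 10 genes had a RefSeq promoter window, and the 250 bases before the start were searched on both strands. The X2 box was searched as TGACG, the Y box as ATTGG, the NF-κB site as GGGGATTCCCC, and the interferon response site in its class I form AGTTTCACTTCT or as 2 runs of GAAA with any 2 bases between them. The letters of the NF-κB site and of the class I form were taken from the H2-K1 window itself, so that their presence there is no finding. The stretch just before the start of H2-K1 (chr17:34000348-34000522, minus strand) holds 4 of these matches in capitals (in order NF-κB, interferon response, X2 and Y), and that of B2m (chr2:122147512-122147685, plus strand) holds an interferon response match, an X2 and a Y match.
H2-K1: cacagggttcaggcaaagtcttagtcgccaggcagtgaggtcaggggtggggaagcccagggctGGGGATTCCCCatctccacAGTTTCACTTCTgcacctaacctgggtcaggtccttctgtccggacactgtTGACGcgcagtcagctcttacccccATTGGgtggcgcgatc
B2m: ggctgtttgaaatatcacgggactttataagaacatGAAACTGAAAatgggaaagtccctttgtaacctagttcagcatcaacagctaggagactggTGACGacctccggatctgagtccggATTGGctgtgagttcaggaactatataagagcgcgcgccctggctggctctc

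The match to the NF-κB site (chr17:35262915-35262941) and the one to the class I interferon response site (chr17:35262934-35262961) were also present on the plus strand in H2-D1, whose window was compared with that of H2-K1 over the 75 bases from the first match to the X2 box and was identical at 71 of them (94.67%). Among all 32851 promoter windows, 10 (0.03044%) held the first and 9 (0.0274%) the second. By GENCODE these stretches of H2-D1 lie inside the gene and overlap an annotated exon, so that the 2 annotations differ on its start. Both genes are shown with the match in capitals.
H2-K1, NF-κB: ccagggctGGGGATTCCCCatctccac
H2-D1, NF-κB: ccagggctGGGGATTCCCCatctcctc
H2-K1, interferon response: atctccacAGTTTCACTTCTgcacctaa
H2-D1, interferon response: atctcctcAGTTTCACTTCTgcacctaa

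The X2 letters are short, and 17.77% of all windows held them. They stood in H2-K1, H2-D1, B2m, Tap1 and Psmb9, in the last of these in a window shared with Tap1, because Tap1 and Psmb9 start 225 bases apart on opposite strands. The 4 sites are given with their surroundings and with the match in capitals, at chr17:34000374-34000398, chr17:35262983-35263007, chr2:122147599-122147623 and chr17:34187460-34187484 in the order shown, of which those of H2-D1 and Tap1 overlap an annotated GENCODE exon.
H2-K1, X2: cggacactgtTGACGcgcagtcagc
H2-D1, X2: gggacactgaTGACGcgctggcagg
B2m, X2: aggagactggTGACGacctccggat
Tap1, X2: cagagacaggTGACGacagagggtc

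The Y box letters were found in 6 of the 8 windows and in 33.85% of all. The gamma-activated site TTCNNNGAA was found in the window of Psmb8 alone of the 8 (7.02% of all windows), and the GAAA runs in that of B2m alone (2.977%). The core of the AhR response element, TNGCGTG, was found in H2-D1 and in the windows of Tap1 and Psmb9, which overlap, and in 4.1% of all windows. A match describes letters and not binding.

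By GENCODE positions in GRCm38, 7 of the 10 genes lie on chromosome 17 and all are annotated as protein-coding. Tapbp (chr17:33915899-33929292) and H2-K1 (chr17:33996017-34000347) come first, followed by the run of Psmb9 (chr17:34181987-34187764), Tap1 (chr17:34187553-34197225), Psmb8 (chr17:34197721-34201454) and Tap2 (chr17:34203527-34216321), and H2-D1 lies apart (chr17:35262730-35267499). The others are B2m (chr2:122147686-122153083), Nlrc5 (chr8:94434356-94527272) and Psmb10 (chr8:105935735-105938444). Of the 50-base stretches in the transcripts of H2-K1 and H2-D1, 9.633% and 12.77% also occurred in 24 and 103 other genes, so that reads from these stretches could not be assigned to 1 gene. The other genes that shared most were class I genes such as H2-Q10 for H2-K1 and H2-Q1 for H2-D1. The share was at most 2.874% for the other 8 genes and 0 for B2m, Psmb9, Psmb10 and Nlrc5. Every member other than H2-K1 and H2-D1 overlaps another annotated gene in part, Tap1 and Psmb9 each other, and the sources used here do not say whether counting used the strand.

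The Naïve library held 2086 cells, that of ConA+Veh 2779, that of ConA+TCDD 1880 and that of ConA+FICZ 2555, with 5952445, 19252211, 12077209 and 16017797 unique molecular identifiers (UMIs, each marking 1 captured RNA molecule). The 10 genes took 0.731%, 0.584%, 0.504% and 0.638% of them. Cells were assigned to a type by marker genes, and 1093, 850, 429 and 802 cells were B-like, 555, 837, 713 and 579 T-like, 126, 250, 189 and 185 NK-like, and 96, 274, 64 and 248 mononuclear phagocyte-like (phagocyte-like). Groups of 4 values are given throughout in this order of libraries, from Naïve and vehicle to TCDD and FICZ. The median T-like cell held 2575, 6800, 6007 and 8298 UMIs and the median B-like cell 2131, 4213, 3416 and 3636.5, so that Naïve cells held fewer UMIs (a lower depth). Whether this lies with capture or with the RNA content of the cells was not tested. The classes were set by these same markers, so their sums describe the classes and do not check them. In T-like cells the 8 T markers summed to 4117, 2751, 2308 and 2506 UMIs per 1000000 UMIs of the class (CPM). The 8 B markers summed there to at most 77.1. The phagocyte-like class of ConA+TCDD stood apart, with phagocyte markers at 4178 CPM against 9196 to 12941 in the other libraries, and markers of granulocyte progenitors at 1596 against 162 to 725. Clustering placed most Naïve B- and T-like cells in clusters of their own, such as a T-like cluster of 262 cells of which 256 were Naïve, so that library and condition cannot be told apart. Any 2 libraries shared 4 to 15 cell barcodes.

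A level is given below in CPM, with an exact 95% Poisson interval in parentheses, and a ratio on the log2 scale with an exact 95% interval. Both cover counting error only. With 1 library per group there is no replicate check, no p-value can be had, and each difference is one between libraries. A difference is called past 1.5-fold when the 2 libraries together held at least 100 UMIs of the gene in the class, and the share of all such genes past it is given beside each first count. No such share is given for counts in subsets of cells or on other scales. Whether those counts stand out among all genes can therefore not be told.

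**Figure D1:**
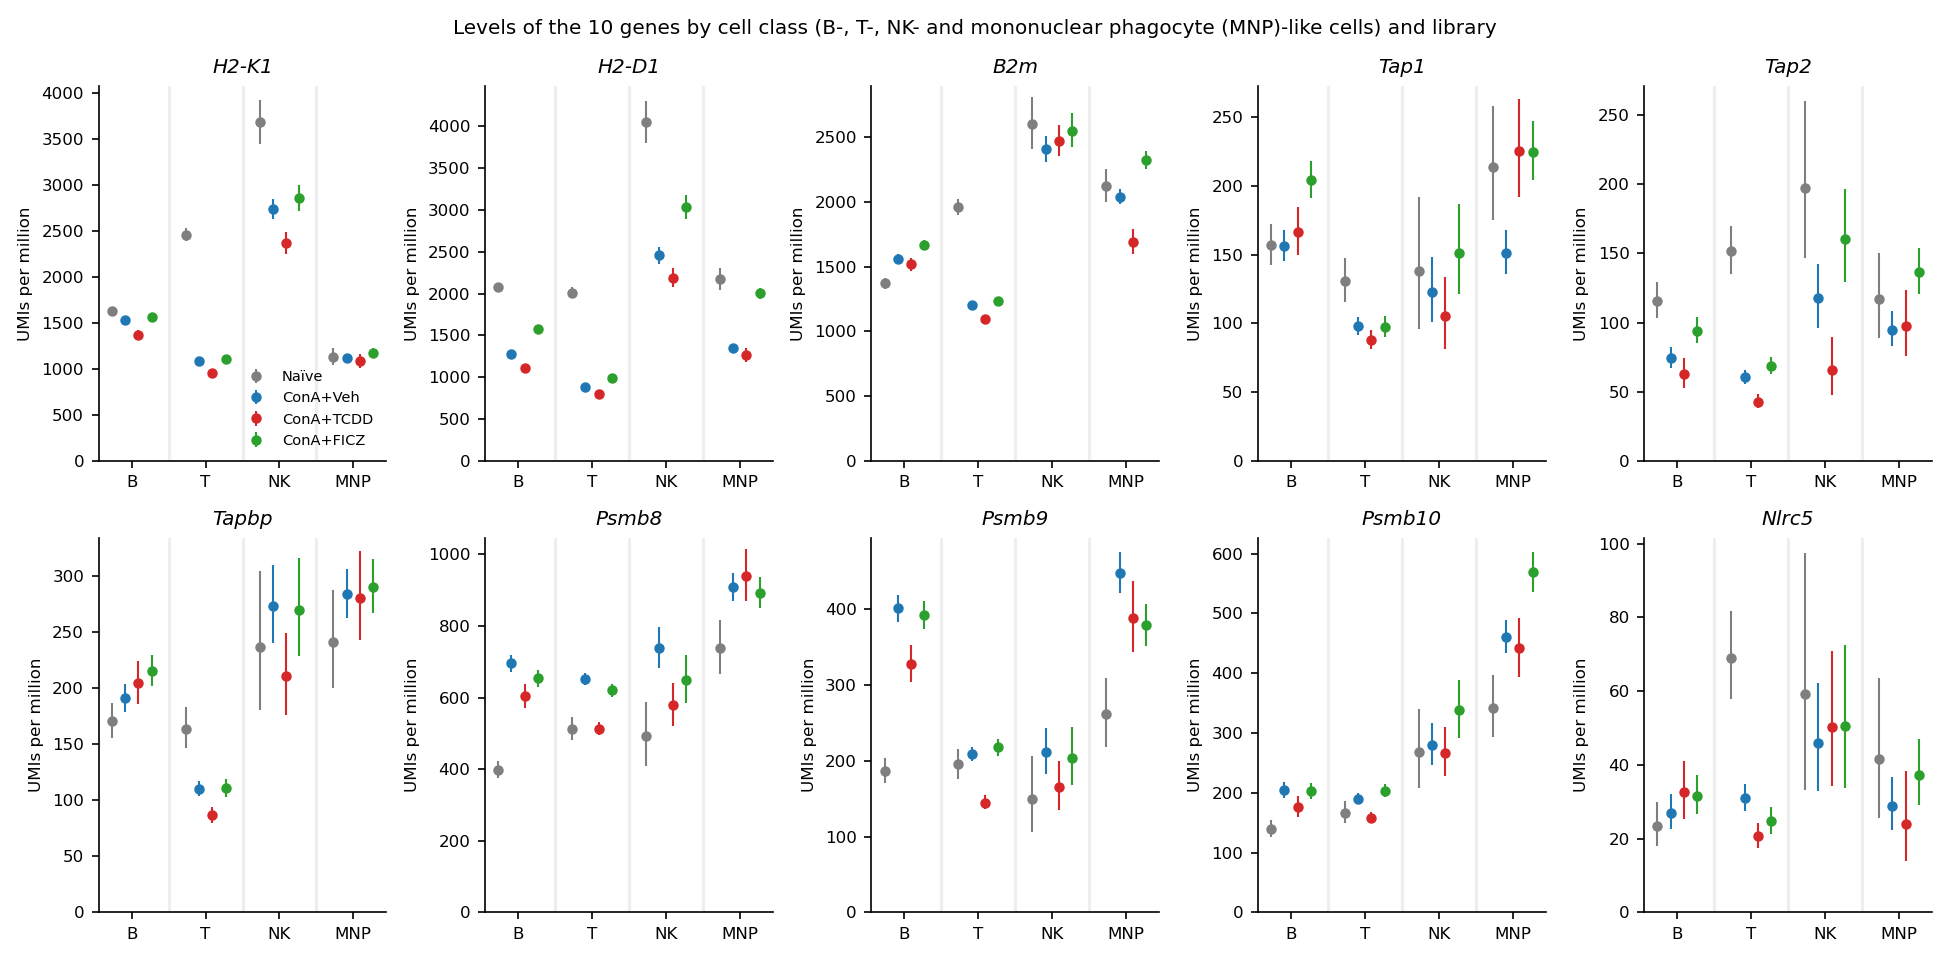
Levels of the 10 genes in CPM (vertical axes, from 0, a scale of its own for each gene) in B-, T-, NK- and mononuclear phagocyte (MNP)-like cells (horizontal axis). Points are the 4 libraries by colour and bars the exact 95% Poisson intervals. In T-like cells Naïve (grey) is highest for H2-K1 at 2458 and for H2-D1 at 2013, while for Psmb8 in B-like cells Naïve is lowest at 398.

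The cell type with the highest level differed between the class I genes. H2-K1, the heavy chain of the K molecule, stood at 3685 (3453 to 3929) CPM in Naïve NK-like cells, at 2748 (2476 to 3043) in endothelial-like, 2458 (2389 to 2529) in T-like, 1629 (1581 to 1678) in B-like and 1133 (1042 to 1230.0) in phagocyte-like cells. All neighbours in this order but endothelial-like and T-like cells had intervals apart. In ConA+Veh the order changed to endothelial-like (3311), NK-like (2740.0), neutrophil-like (2016), B-like (1528), phagocyte-like (1118), T-like (1084) and erythroid-like (62.9) cells, where phagocyte-like and T-like cells overlapped. H2-D1, the heavy chain of the D molecule, stood at 4051 (3808 to 4307) in Naïve NK-like cells and between 2013 and 2172 in T-, B- and phagocyte-like cells, whose neighbouring intervals overlapped. The 8 endothelial-like cells of ConA+TCDD and the 23 neutrophil-like cells of Naïve were too few to be ranked. Of the classes ranked in the 3 ConA libraries, neutrophil-like cells were highest for H2-D1, at 3350.1, 3037 and 3838. In ConA+FICZ their interval overlapped that of endothelial-like cells (3583). B2m, the light chain that all class I molecules need, was highest in endothelial-like cells, at 3600.4, 4035 and 4899.6 in Naïve, ConA+Veh and ConA+FICZ. In ConA+TCDD, where endothelial-like cells were not ranked, B2m was highest in neutrophil-like cells (2719), whose interval overlapped that of NK-like cells. Whether the class with the highest B2m level differed in ConA+TCDD can therefore not be told.

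The immunoproteasome genes were ordered otherwise, with phagocyte-like cells on top of the 4 main classes for Psmb8 and Psmb10 in every library, and for Psmb9 in all but ConA+FICZ, where B-like cells were at 392 and phagocyte-like cells at 379. Psmb8, which takes the place of Psmb5, stood at 738, 909, 941 and 893 CPM in phagocyte-like cells against 512, 651, 513 and 620.3 in T-like cells. Psmb10, which takes the place of Psmb7, stood at 342, 461, 441 and 568 in phagocyte-like, 268, 279, 267 and 338 in NK-like, 167, 189.7, 158 and 203 in T-like and 139.9, 204, 176 and 203 in B-like cells. Nlrc5 was low throughout, between 20.6 and 69.0 CPM in the 4 main classes, and its highest level was 133 (108 to 163) in the neutrophil-like cells of ConA+FICZ. In erythroid-like cells, which lack a nucleus once mature, H2-K1 was at 62.9 (20.4 to 147) with vehicle and at 193 (118 to 298) with TCDD, and Nlrc5 was listed with 0 UMIs in both libraries. The hepatocyte-like cells, 176 of which were in ConA+FICZ and 6 in the other 3 libraries, held H2-K1 at 939 (828 to 1061) and Psmb8 at 459 (382 to 546).

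The first comparison, ConA+Veh with Naïve, describes the genes in ConA hepatitis. In T-like cells the class I genes took a smaller part of the RNA after ConA, and over all T-like cells the immunoproteasome genes did not. H2-K1 was at 2458 (2389 to 2529), 1084 (1063 to 1106), 961 and 1104 CPM, and the log2 ratio of ConA+Veh over Naïve was -1.18 (-1.23 to -1.13). H2-D1 was at 2013, 886, 795 and 991 CPM, and the log2 ratio of ConA+Veh over Naïve was again -1.18 (-1.24 to -1.13). B2m followed at 1959, 1204, 1097 and 1233 (-0.70). For all 3 genes the Naïve library was far above the ConA libraries, which lay close together.

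Among the genes of peptide supply in T-like cells, Tap2, a transporter chain, was at 152, 60.6, 42.9 and 68.9 CPM, with a log2 ratio of ConA+Veh over Naïve of -1.32 (-1.53 to -1.11). Its partner Tap1 was at 131, 98.1, 88.0 and 97.6 (-0.41) and Tapbp at 164, 110.3, 86.9 and 111 (-0.57), both short of 1.5-fold. Nlrc5 was at 69.0, 31.0, 20.6 and 24.7 (-1.15). The 3 immunoproteasome genes were slightly higher in ConA+Veh, with log2 ratios of 0.34 for Psmb8, 0.10 for Psmb9 and 0.19 for Psmb10. Thus 5 of the 10 genes were past 1.5-fold lower and none past it higher, where 23.7% of all 7233 genes were lower and 19.4% higher, and the median log2 ratio of the 10 was -0.64 against -0.07 for all genes.

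The size of this difference depended on the depth of the cells. ConA+Veh held 385 T-like cells over 8000 UMIs (46.0% of its T-like cells) and Naïve 24 (4.32%), and a cycling gene was detected in 68.2% and 7.57% of all their T-like cells. In T-like cells with 2000 to 8000 UMIs, 345 in Naïve and 339 in ConA+Veh, H2-K1 was at 2803 and 2055 CPM (log2 ratio -0.45), H2-D1 at 2243 and 1621 (-0.47), B2m at 2166 and 1806 (-0.26) and Tap2 at 168 and 126 (-0.42). None of the 10 genes was then past 1.5-fold, and Nlrc5 was at 66.6 and 69.5 (0.06). Psmb9 turned lower in these cells, with a log2 ratio of -0.38 (-0.64 to -0.11), while Tap1 (0.36, 0.080 to 0.65) and Tapbp (0.42, 0.16 to 0.68) turned higher. T-like cells with 500 to 2000 UMIs numbered 186 in Naïve and 113 in ConA+Veh. There the log2 ratio was -0.13 (-0.29 to 0.03) for H2-K1 and -0.11 (-0.30 to 0.06) for H2-D1. It was -0.27 (-0.47 to -0.08) for B2m, 0.06 for Tap2 and 1.10 (0.49 to 1.73) for Tapbp. In ConA+Veh itself the T-like cells over 8000 UMIs held H2-K1 at 839.7 CPM and those under 2000 UMIs at 3245. Cycling T-like cells, those with UMIs of at least 2 cycling genes, held a lower H2-K1 level in CPM than those with none in each ConA library, by log2 ratios of -1.04, -1.06 and -0.93, and H2-D1 by -0.71, -0.91 and -0.76. Psmb9 went the other way, with 0.19, 1.11 and 0.66. How much of the difference between the libraries lies with depth or cycling was not tested further.

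Counted per cell, the same genes were higher after ConA. A T-like cell held 8.67 UMIs of H2-K1 in Naïve and 11.5 in ConA+Veh, a log2 ratio of 0.41, and 1.81 and 6.93 UMIs of Psmb8, a log2 ratio of 1.94. All 10 genes were higher per cell in B-, T- and NK-like cells, in each of which the median cell of ConA+Veh held more UMIs in all. The share of all genes that were higher per cell is not given, so this count does not set the 10 apart. A T-like cell of ConA+Veh held more UMIs in all, so the CPM and per-cell scales answer different questions, of the make-up of the RNA and of its captured amount.

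**Figure D2:**
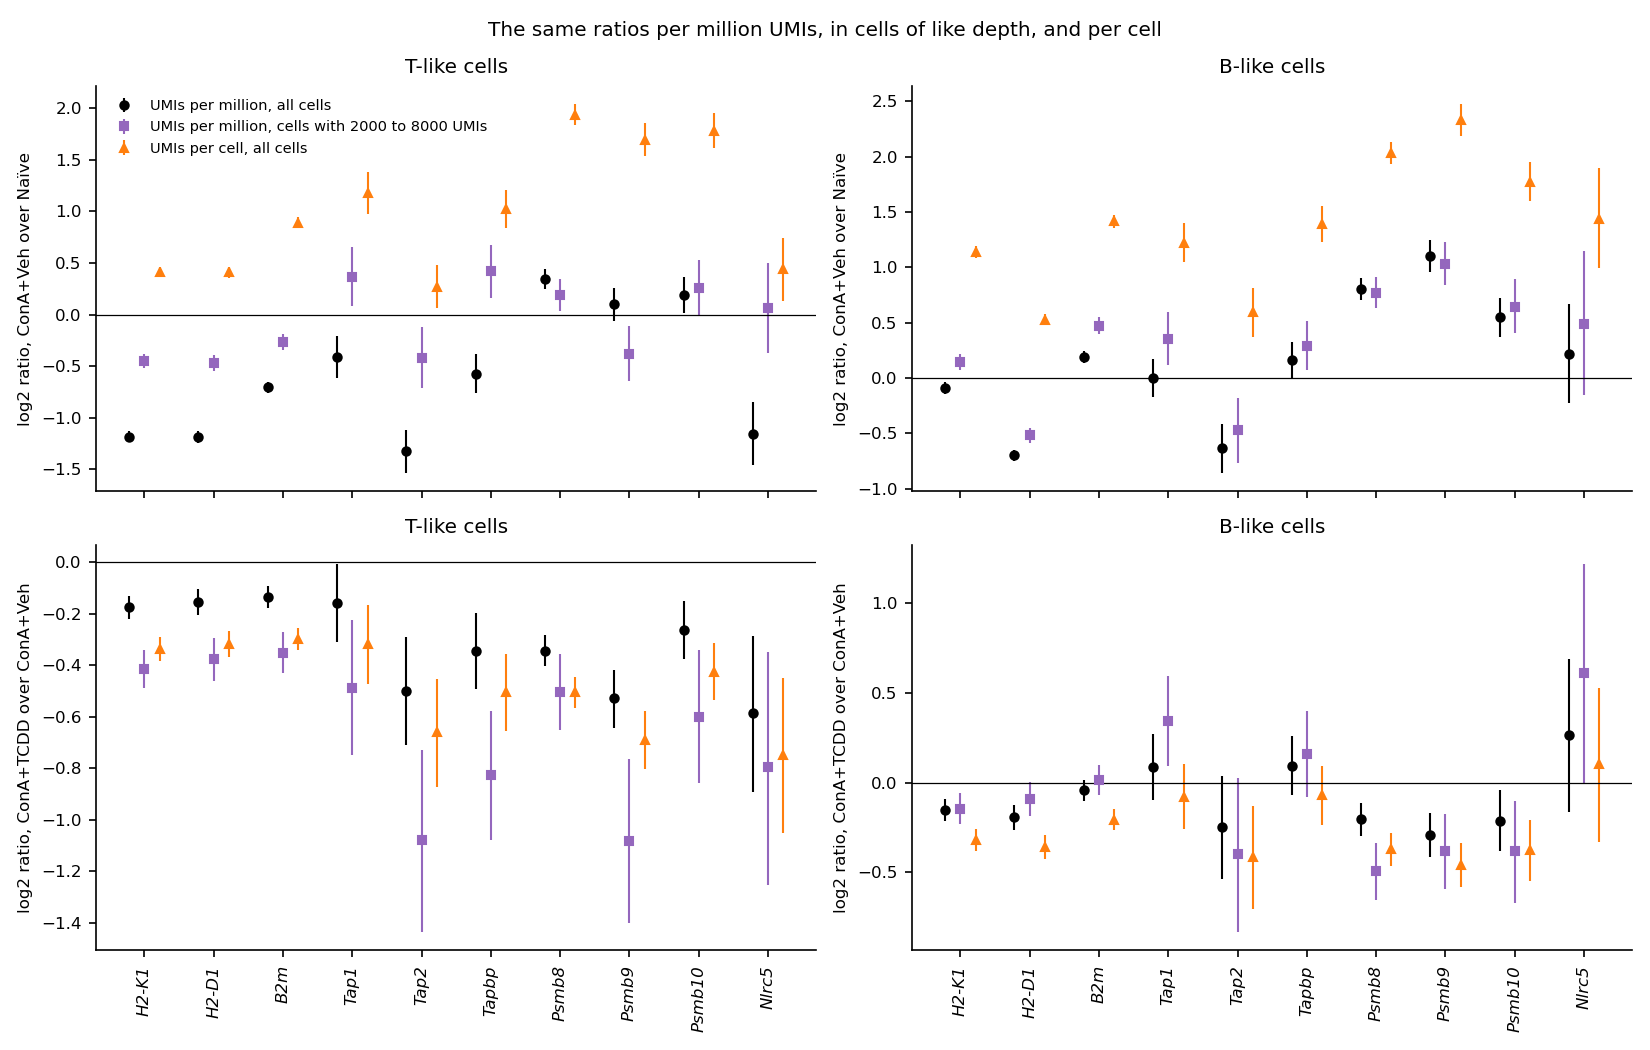
Log2 ratios (vertical axes) of the 10 genes (horizontal axes) in T-like cells (left) and B-like cells (right), for ConA+Veh over Naïve (top) and ConA+TCDD over ConA+Veh (bottom). Circles are CPM over all cells, squares the same in cells with 2000 to 8000 UMIs, triangles UMIs per cell, and bars exact 95% intervals. At the top left H2-K1 lies at -1.18, -0.45 and 0.41 on the 3 scales, while at the bottom left all points lie below 0.

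Over all cells of a kind, the smaller part of class I in ConA+Veh was present in each kind of T-like cell. H2-K1 was at 1968 CPM in 178 Naïve and 937 in 417 ConA+Veh CD8 T-like cells (log2 ratio -1.07), at 2346 and 1089.7 in CD4 T-like cells (-1.11) and at 3201 and 1879.9 in gamma delta T-like cells (-0.77). The corresponding log2 ratios of H2-D1 were -1.12, -1.19 and -0.95. T-like cells of none of these kinds gave -1.09 for H2-K1. Depth differed within each kind as well, with median UMIs in Naïve and ConA+Veh of 3230 and 9500 in CD8 T-like cells. They were 2719 and 6924 in CD4 and 3199.5 and 7067 in gamma delta T-like cells. A cycling gene was detected in 7.30% and 79.1% of CD8 T-like cells. Ratios by kind in cells of like depth are not given. Of the 3 kinds, gamma delta T-like cells had the highest H2-K1 level in CPM in both libraries.

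B-like cells differed from T-like cells in the immunoproteasome genes. Psmb9, which takes the place of Psmb6, was at 187 (171 to 204) CPM in Naïve and at 401 (383 to 419), 327 and 392 in the ConA libraries, and ConA+Veh exceeded Naïve by 1.10 (0.96 to 1.24) on the log2 scale. Psmb8 was at 398, 696, 603 and 654 CPM (0.80) and Psmb10 at 139.9, 204, 176 and 203 (0.55). The Naïve library was lowest for all 3 genes. H2-D1 was lower, at 2074, 1278, 1116 and 1579 (-0.70), whereas H2-K1 stayed within 1372 to 1629 (-0.09) and B2m was slightly higher (0.19), so that a B-like cell held 1.27 UMIs of H2-D1 per UMI of H2-K1 in Naïve and 0.836 in ConA+Veh. Tap2 was at 116, 74.6, 62.8 and 94.2 CPM (-0.63), and Tap1 at 157, 157, 166 and 204. In all, 2 members were past 1.5-fold higher (17.4% of all 6245 genes) and 2 lower (30% of all genes), with a median of 0.18 against -0.18 for all genes. In B-like cells with 2000 to 8000 UMIs the log2 ratios were 1.03 for Psmb9, 0.77 for Psmb8, -0.52 for H2-D1 and -0.47 for Tap2. Those of H2-D1 and Tap2 were then short of 1.5-fold, while that of Psmb10 was past it (0.64). The pattern differed in B-like cells with 500 to 2000 UMIs, 486 in Naïve and 160 in ConA+Veh. There Psmb9 was at 1.16, but Psmb8 at 0.17 (-0.22 to 0.54) and Psmb10 at -0.41 (-1.16 to 0.27). H2-D1 was at 0.15 (-0.0087 to 0.30), H2-K1 at 0.68 (0.53 to 0.83), Tap1 at 1.09 and Tap2 at 0.35 (-0.36 to 1.02).

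In NK-like cells H2-D1 was at 4051, 2458, 2192 and 3035 CPM (log2 ratio of ConA+Veh over Naïve -0.72, -0.83 to -0.61) and H2-K1 at 3685, 2740.0, 2372 and 2859 (-0.43). Tap2 was at 197, 117, 66.0 and 160.2 (-0.75), on 50 and 105 UMIs in the first 2 libraries, and Psmb8 at 493, 738, 578 and 649 (0.58, just short of 1.5-fold). Of the 9 members with enough UMIs 2 were past 1.5-fold lower (16.3% of all 1587 genes) and none higher (21.7%). The median log2 ratio of all genes in these cells was 0.12, and Psmb8, Psmb9 (0.50) and Tapbp (0.21) were the members above it. In cells with 2000 to 8000 UMIs, 41 of them Naïve, none of the 10 was past 1.5-fold. NK-like cells also held T markers, at 309 to 615 CPM summed.

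Phagocyte-like cells had H2-D1 at 2172, 1355, 1261 and 2003 CPM (log2 ratio of ConA+Veh over Naïve -0.68, -0.78 to -0.58) and H2-K1 at 1133, 1118, 1083 and 1176, with overlapping intervals for Naïve and ConA+Veh. The number of H2-D1 UMIs per H2-K1 UMI was 1.92 in Naïve and 1.21 in ConA+Veh. Psmb9 was at 261, 447, 388 and 379 (0.78), the highest ratio of the 10, and Tap1 at 214, 151, 226 and 225 (-0.50). Of 9 members with enough UMIs 1 was higher past 1.5-fold and 1 lower, where 14.5% and 14.1% of all 3654 genes were. Over all cells of a class, H2-D1 was thus the member that was past 1.5-fold lower in all 4 classes on the CPM scale. The share of all genes past it lower in all 4 classes is not given, so whether H2-D1 stands out cannot be told. In cells with 2000 to 8000 UMIs H2-D1 was short of 1.5-fold in B-like (-0.52), T-like (-0.47) and NK-like cells. In those with 500 to 2000 UMIs it was at 0.15 in B-like and -0.11 in T-like cells. Per cell its log2 ratios were 0.53, 0.41, 0.11 and -0.02 in B-, T-, NK- and phagocyte-like cells. The make-up of the phagocyte-like class differed between Naïve and ConA+Veh. It held 5 and 83 macrophage-like and 59 and 111 monocyte-like cells. Its neutrophil markers summed to 720 and 1703 CPM and its granulocyte progenitor markers to 162 and 506. The part of this make-up in the values was not tested.

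In endothelial-like cells, 42 in Naïve and 76 in ConA+Veh, Psmb8 was at 363 and 741 CPM (log2 ratio 1.03, 0.58 to 1.51) and Psmb9 at 267 and 408 (0.61), while H2-D1 was at 3356 and 2357 (-0.51). The direction of these 3 genes was that seen in the 4 main classes in CPM over all cells. For Psmb9 in T-like cells that ratio was only 0.10, and it was -0.38 in those with 2000 to 8000 UMIs.

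**Figure D3:**
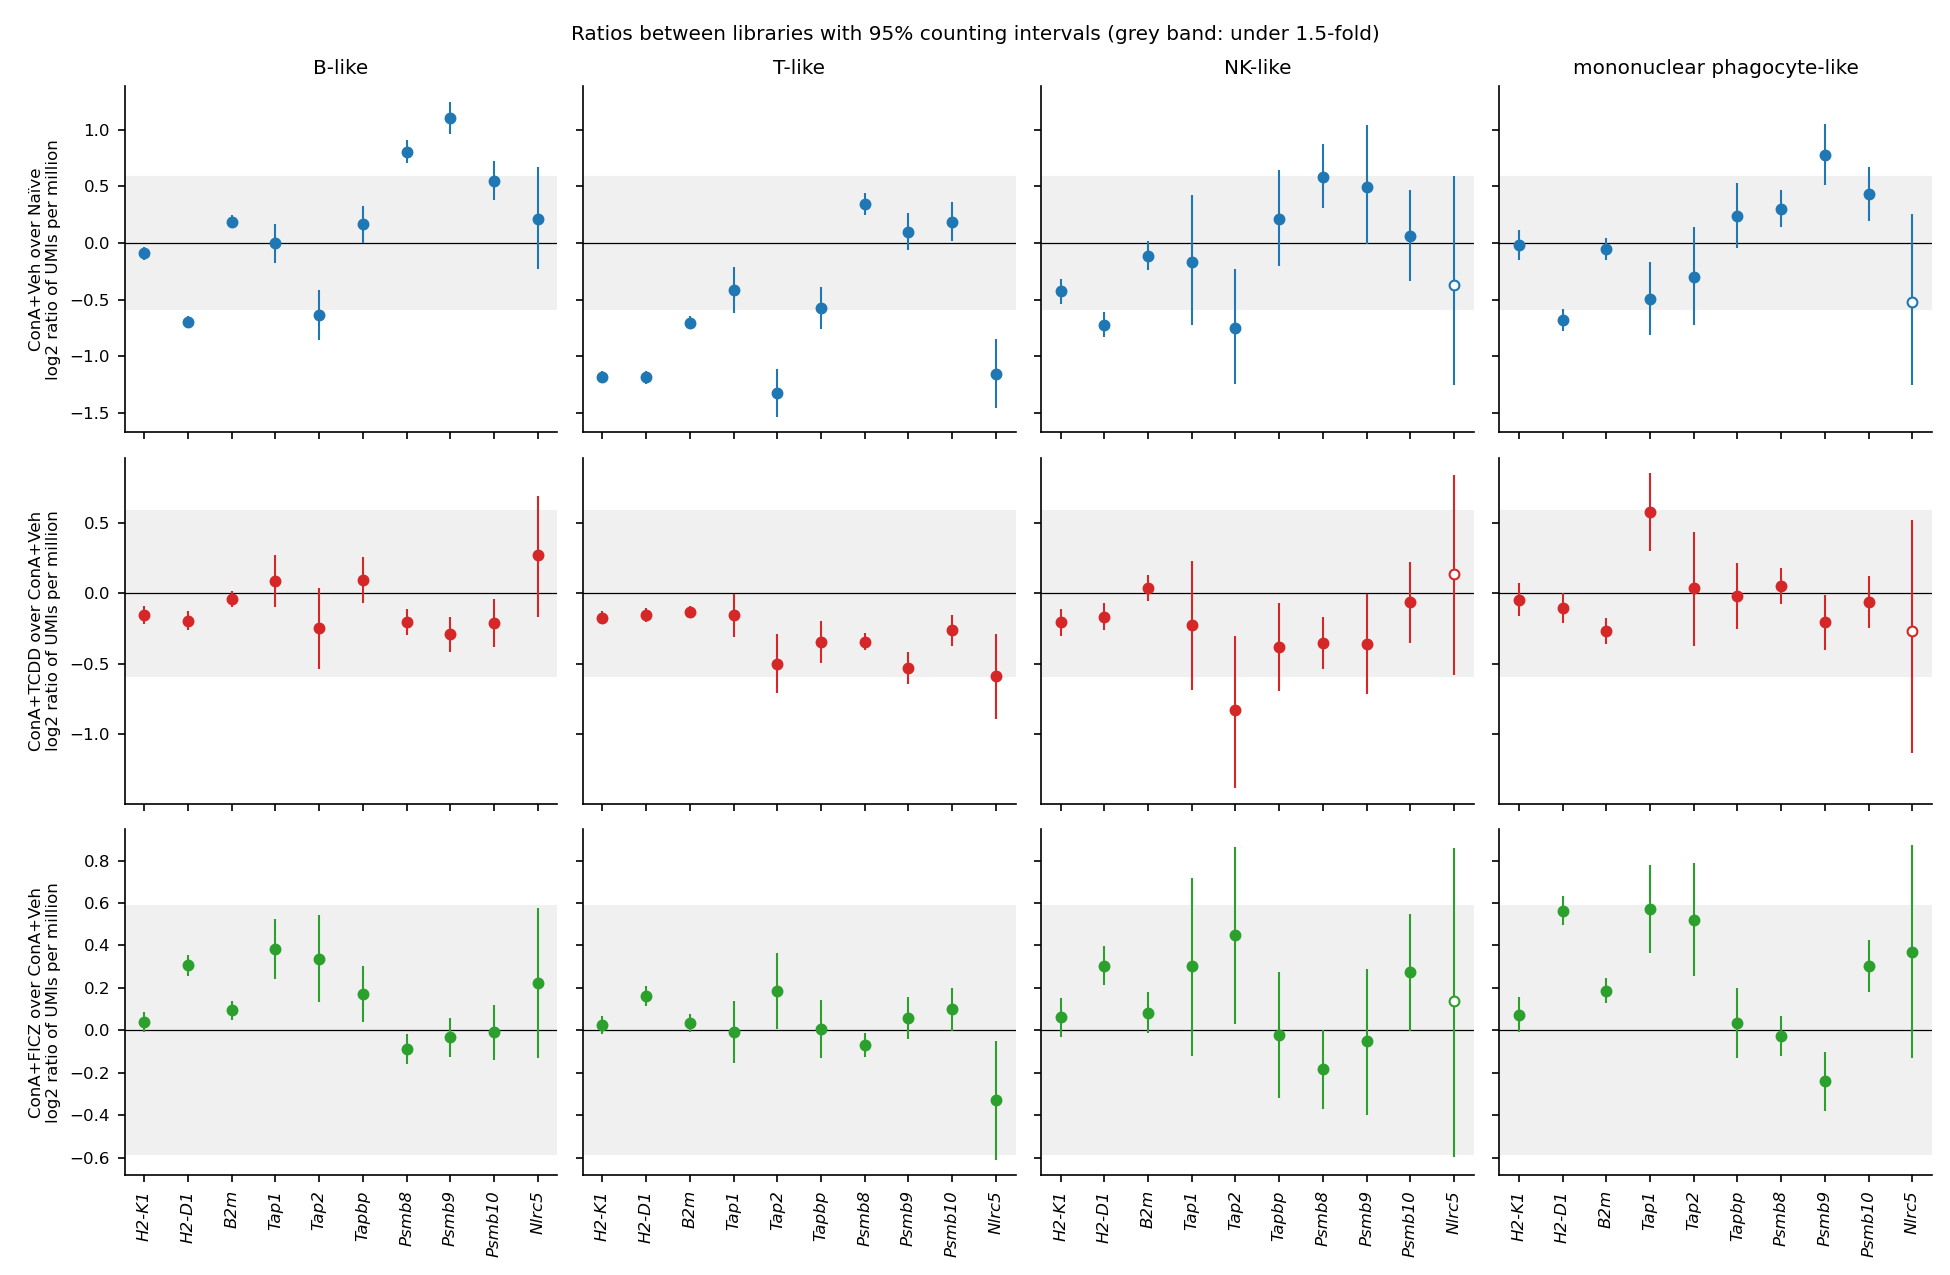
Log2 ratios of CPM (vertical axes, a scale of its own for each row) for the 10 genes (horizontal axes) in the 4 main classes (columns), for ConA+Veh over Naïve (top), ConA+TCDD over ConA+Veh (middle) and ConA+FICZ over ConA+Veh (bottom). Bars are exact 95% intervals, the grey band is under 1.5-fold, and open points had fewer than 100 UMIs. Over all cells of a class, as drawn here, H2-D1 lies below the band in all 4 columns of the top row, and in the T-like column of the middle row all 10 points lie below 0.

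The second comparison, ConA+TCDD with ConA+Veh, describes the genes under the AhR ligand TCDD. In T-like cells all 10 genes had a lower CPM in ConA+TCDD, by log2 ratios from -0.13 for B2m to -0.59 for Nlrc5, where 58.0% of all 7861 genes were lower and the median was -0.05 for all genes and -0.30 for the 10. Psmb9 was at 209 (199.6 to 219) CPM with vehicle and 145 (136 to 154) with TCDD, which gives -0.53 (-0.64 to -0.42), and Psmb8 was at 651 (634 to 668) and 513 (496 to 530.3), which gives -0.34. Tap2 was at 60.6 and 42.9 (-0.50), Tapbp at 110.3 and 86.9 (-0.34) and Psmb10 at 189.7 and 158 (-0.26). The heavy chains differed less, with -0.17 for H2-K1 and -0.15 for H2-D1. Nlrc5, on 276 and 140 UMIs, was the 1 member past 1.5-fold, and only just, where 3.71% of all genes were lower and 1.65% higher past it. Its interval of -0.89 to -0.29 reached far to both sides of the threshold.

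The direction held for all 10 genes in the T-like class under each alternative that changed the choice of cells or the scaling, while the size did not. In T-like cells with 2000 to 8000 UMIs, 369 in ConA+TCDD and 339 in ConA+Veh, 5 of the 10 were past 1.5-fold lower, with log2 ratios of -1.08 for Psmb9 and for Tap2, -0.83 for Tapbp, -0.80 for Nlrc5 and -0.60 for Psmb10. Without cells that held a UMI of a cycling gene there were also 5. The shares of all genes past 1.5-fold in these 2 subsets are not given, so whether 5 of 10 stands out there cannot be told. T-like cells over 8000 UMIs numbered 275 in ConA+TCDD and 385 in ConA+Veh. Their log2 ratios were -0.37 for Psmb9, -0.36 for Tap2, -0.23 for Tapbp, -0.79 for Nlrc5 and -0.15 for Psmb10. In T-like cells with 500 to 2000 UMIs, 69 and 113, all 10 genes were below 0 with intervals that included it. By kind of T-like cell the log2 ratio of Psmb9 was -0.44 in CD8 and -0.31 in CD4 T-like cells, and that of H2-K1 -0.38 and -0.31. In T-like cells of no further kind Psmb9 was at -0.90 and H2-K1 at 0.04.

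The lymphocytes of ConA+TCDD also differed in other RNA. A UMI of an erythroid marker was held by 1.26%, 14.7%, 29.9% and 0.518% of T-like cells, and 10.8%, 7.05%, 29.0% and 9.67% held no UMI of Cd52, a surface protein of lymphocytes. B-like cells with an erythroid marker were 14.1% with vehicle and 27.3% with TCDD, and those without Cd52 10.6% and 24.0%. In NK-like cells these shares were 12.8% and 27.0%, and 4.0% and 13.8%. The part of this RNA in the values of the 10 genes was not tested beyond the T-like subsets that follow and the alternatives in the closing section. Among T-like cells with a Cd52 UMI all 10 genes were still lower in ConA+TCDD, with -0.37 for Psmb9, -0.45 for Tap2 and -0.68 for Nlrc5. With both a Cd52 UMI and 2000 to 8000 UMIs, 3 were past 1.5-fold lower, again with no share of all genes to set beside it. Without cells that held an erythroid or granulocyte progenitor marker, 1 member was past it.

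In B-like cells 7 of the 10 genes were lower in ConA+TCDD, where 46.5% of all genes were. Psmb9 had the lowest log2 ratio, -0.29 (-0.42 to -0.17), followed by Tap2 (-0.25, but 0.035 when averaged over cells scaled to 10000 UMIs), Psmb10 (-0.21), Psmb8 (-0.21), H2-D1 (-0.20) and H2-K1 (-0.16), while Tap1 (0.09), Tapbp (0.10) and Nlrc5 (0.27) were above 0 with intervals that included it. No member was past 1.5-fold, which 3.22% of all 5708 genes passed higher and 4.33% lower. In NK-like cells 8 of the 10 were lower, where 58.2% of all genes were, and Tap2 was the 1 member past 1.5-fold (-0.83, -1.38 to -0.30, on 105 and 42 UMIs; 4.62% of all 2013 genes were lower and 1.69% higher). B2m was the exception with enough UMIs (0.04, -0.06 to 0.13). Phagocyte-like cells, 64 in ConA+TCDD, showed no member past 1.5-fold (5.21% of all 3761 genes higher, 9.84% lower). Their Tap1 was at 151 (136 to 168) CPM with vehicle and 226 (192 to 263) with TCDD (0.58, just short), and B2m at 2038 and 1692 (-0.27, but 0.14 per cell). The values of this class go with its granulocyte progenitor markers given above, whose part in them was not tested.

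The immunoproteasome genes can be set against the standard subunits that they replace, Psmb5, Psmb6 and Psmb7. Of the UMIs of these 6 genes, Psmb8, Psmb9 and Psmb10 made up 68.9% (67.0 to 70.7), 58.0% (57.3 to 58.8), 50.5% (49.6 to 51.5) and 56.0% (55.1 to 56.8) in T-like cells. In B-like cells the shares were 66.9%, 68.2% (67.2 to 69.1), 60.7% (59.2 to 62.2) and 66.1%, with ConA+TCDD alone below the rest. The share is one of captured molecules, and capture can differ between genes, so it is compared between libraries only.

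In T-like cells with 2000 to 8000 UMIs the shares were 74.8%, 67.0%, 50.3% and 61.7%, and in those with a Cd52 UMI they were 69.2%, 58.0%, 52.3% and 56.2%. With both limits they were 75.4%, 67.3%, 58.8% and 63.1%, and in T-like cells without a cycling marker 71.7%, 65.5%, 48.8% and 54.8%. B-like cells gave 68.2%, 70.3%, 59.7% and 69.5% at 2000 to 8000 UMIs and 67.2%, 68.2%, 61.6% and 66.2% with a Cd52 UMI. ConA+TCDD had the lowest share in each of these subsets. By pair of subunits, Psmb9 was 53.4%, 40.6%, 31.1% and 39.9% of the UMIs of Psmb9 and Psmb6 in T-like cells, and 54.5%, 62.3%, 52.4% and 59.6% in B-like cells. NK-like cells had shares of all 3 subunits of 67.2%, 66.6%, 63.2% and 67.7%, with intervals that overlapped between ConA+Veh and ConA+TCDD, and phagocyte-like cells 65.3%, 66.7%, 65.5% and 65.3%. Neutrophil-like cells had the highest, 86.3%, 82.1% and 86.1% in the 3 ConA libraries, and the hepatocyte-like cells of ConA+FICZ 42.7% (38.2 to 47.3). In phagocyte-like cells the pairs differed more than their sum. There Psmb9 was 51.0%, 57.8%, 53.1% and 48.7% of its pair, Psmb10 73.0%, 74.5%, 73.0% and 80.1%, and Psmb8 between 67.2% and 68.8%. In NK-like cells Psmb10 was 81.0%, 77.6%, 82.5% and 90.7% of its pair, the last with 20 UMIs of Psmb7.

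**Figure D4:**
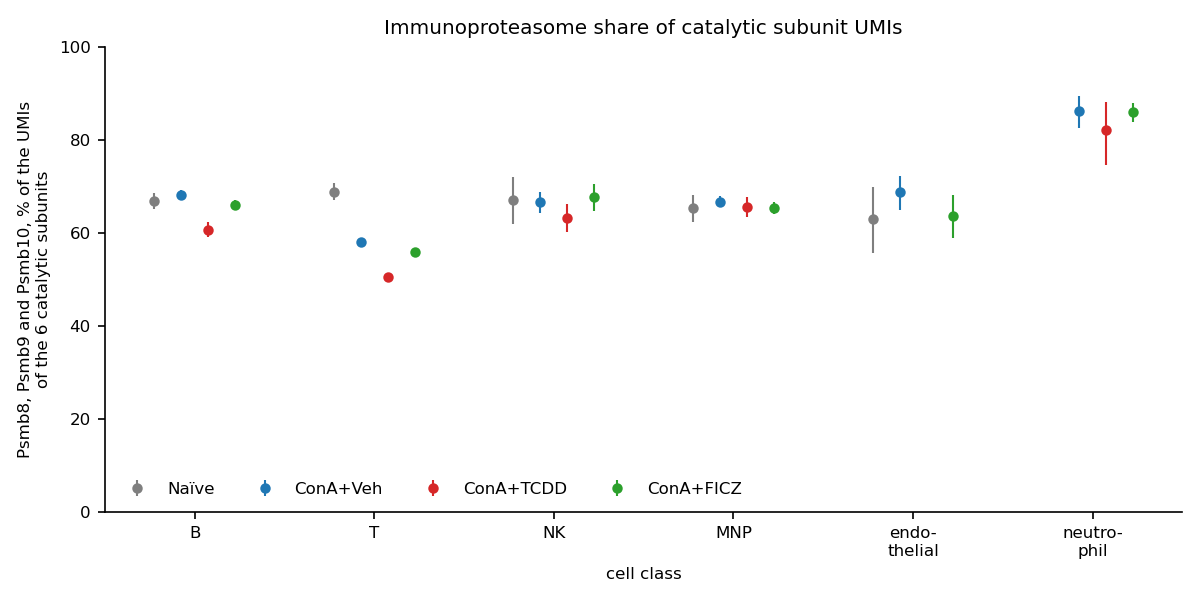
Share of Psmb8, Psmb9 and Psmb10 in the UMIs of the 6 catalytic proteasome subunits (vertical axis, percent) by cell class (horizontal axis; MNP, mononuclear phagocyte) and library (colour), with exact 95% binomial intervals. In T-like cells ConA+TCDD lies at 50.5% against 58.0% in ConA+Veh, and neutrophil-like cells lie above 80%.

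The third comparison, ConA+FICZ with ConA+Veh, uses the same control library as the second, so the values of both are given side by side and not related. The dose of FICZ is not given in the sources used here, so the doses of the ligands cannot be compared. No member was past 1.5-fold in any of the 4 classes, where between 1.94% (T-like) and 8.11% (phagocyte-like) of all genes were higher past it and between 2.76% (phagocyte-like) and 5.87% (NK-like) lower; B-like cells had 3.39% and 2.79%, T-like cells 5.67% lower and NK-like cells 2.86% higher. H2-D1 was higher in ConA+FICZ in each class, with log2 ratios of 0.31 (0.26 to 0.36) in B-like, 0.16 (0.12 to 0.21) in T-like, 0.30 (0.21 to 0.40) in NK-like and 0.56 (0.50 to 0.63) in phagocyte-like cells, and its ratios for ConA+TCDD were -0.20, -0.15, -0.17 and -0.10. In T-like cells thinned to 1000 UMIs the ratio for ConA+FICZ turned to -0.089. In phagocyte-like cells that for ConA+TCDD turned to 0.19 when so thinned and to 0.31 when counted per cell. With FICZ, H2-D1 in phagocyte-like cells reached 2003 (1940.4 to 2067) CPM against 1355 (1307 to 1403). H2-K1 differed by at most 0.07 in the 4 classes.

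Tap1 was higher in ConA+FICZ in B-like cells, at 204 CPM against 157 (0.38, 0.24 to 0.52), and in phagocyte-like cells, at 225 against 151 (0.57), while in T-like cells it was at 97.6 against 98.1. Tap2 was higher by 0.34, 0.19, 0.45 and 0.52 in B-, T-, NK- and phagocyte-like cells, where ConA+TCDD gave -0.25, -0.50, -0.83 and 0.04. For ConA+FICZ it turned to -0.13 in T-like cells thinned to 1000 UMIs and to -0.54 in NK-like cells without a marker of another main class. Over all B- and T-like cells the immunoproteasome genes stayed close to ConA+Veh in CPM. The ratios for Psmb8, Psmb9 and Psmb10 were -0.09, -0.03 and -0.01 in B-like cells and -0.07, 0.06 and 0.10 in T-like cells. They were 0.15, 0.29 and 0.30 in T-like cells with 2000 to 8000 UMIs. Without a cycling marker, T-like cells of ConA+Veh and ConA+FICZ held Psmb8 at 709 and 602 CPM. Psmb9 was there at 189 and 161 and Psmb10 at 195 and 200. The immunoproteasome share in T-like cells was 58.0% in ConA+Veh and 56.0% in ConA+FICZ. Without a cycling marker it was 65.5% (63.5 to 67.4) and 54.8% (53.1 to 56.4). In phagocyte-like cells Psmb9 was lower, at 379 against 447 (-0.24), and Psmb10 higher, at 568 against 461 (0.30). In T-like cells with 2000 to 8000 UMIs 1 member, Nlrc5, was past 1.5-fold lower (-0.70). In endothelial-like cells H2-D1 was at 2357 and 3583 CPM (0.60, 0.45 to 0.76). In the 69 macrophage-like and 105 monocyte-like cells of ConA+FICZ the ratios of H2-D1 were 0.61 and 0.52. Neutrophil-like cells, 100 in ConA+Veh and 264 in ConA+FICZ, had a ratio of 0.20 for H2-D1 and 0.94 (0.20 to 1.75) for Nlrc5, on 18 and 94 UMIs.

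Other genes of the pathway were counted by lists. Their ratios are of CPM over all cells of a class. No ratios in cells of like depth are given for them, where those of H2-K1 and H2-D1 in T-like cells were smaller. The nonclassical class I genes were lower like H2-K1 and H2-D1 in T-like cells of ConA+Veh against Naïve: all 6 measured ones were past 1.5-fold lower, H2-Q4 (-1.73), H2-Q6 (-1.92), H2-Q7 (-1.11), H2-T22 (-0.60), H2-T23 (-0.93) and H2-M3 (-1.14). These genes share sequence, so reads may be split between them. In B-like cells 3 of 7 were lower past it, in NK-like cells 2 of 5, and in phagocyte-like cells 2 of 6 lower and 1 (H2-Q7, 0.77) higher. The shares of all genes lower past it were 23.7% in T-like, 30% in B-like, 16.3% in NK-like and 14.1% in phagocyte-like cells, and 14.5% were higher in the last. Of 5 listed genes of peptide loading and trimming, 3 chaperones went the other way in T-like cells. Calr (0.82), Canx (1.44) and Pdia3 (1.10) were past 1.5-fold higher there (19.4% of all genes), and 1 of the 5 was below 0. The same 3 genes were past it in B-like and NK-like cells (17.4% and 21.7% of all genes). In phagocyte-like cells none of the 3 measured genes of the list was past it (14.5% of all genes).

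The other proteasome genes were higher in ConA+Veh than in Naïve. Of 11 other subunits of the 20S core, 11 were past 1.5-fold higher in B-like, 9 in T-like, 7 in NK-like and 5 in phagocyte-like cells, with list medians of 1.06, 0.69, 0.77 and 0.50. The shares of all genes past it higher were 17.4%, 19.4%, 21.7% and 14.5% in these classes. The standard catalytic subunits Psmb5, Psmb6 and Psmb7 were higher by 1.06, 0.84 and 0.86 in T-like cells, more than the immunoproteasome genes there. In B-like cells they were higher by 0.96, 0.63 and 0.47. Of the PA28 activator and assembly genes, Psme1, Psme2, Psme3 and Pomp, all 4 were past 1.5-fold higher in B-like cells (1.09, 1.49, 0.80 and 1.48), and Pomp alone in T-like cells (0.63). In ConA+TCDD against ConA+Veh, Psma4 in NK-like cells (-0.59) was the 1 gene of these 3 lists past 1.5-fold, where 4.62% of all genes were lower past it. The standard subunits were at 0.05, 0.07 and 0.17 in T-like cells and 0.15, 0.30 and 0.36 in B-like cells.

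Among the regulators, Irf1, an interferon-induced activator of these genes, was lower in ConA+Veh than in Naïve in T-like (-0.89) and NK-like cells (-1.11). In T-like cells 4 of 12 measured regulators were past 1.5-fold lower, where 23.7% of all genes were, the others being Irf2 (-1.03), Ifngr2 (-0.88) and Jak1 (-0.70). In B-like cells 5 of 14 were past 1.5-fold lower, near the 30% of all genes, and Ciita, the class II counterpart of Nlrc5, was at -1.10. In ConA+TCDD Irf1 was at 0.61 in B-like and 0.70 in phagocyte-like cells, where 3.22% and 5.21% of all genes were past 1.5-fold higher. In ConA+FICZ Irf1 was at 0.67 in NK-like cells, where 2.86% were. Of 13 measured regulators in T-like cells of ConA+FICZ, 2 were past 1.5-fold lower, Jak2 (-0.80) and Ifngr2 (-0.63), beside 5.67% of all genes.

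Across the 25 sums of 1 class in 1 library with at least 30 cells, the members moved together to unequal degrees. Pearson's r of the levels was highest between H2-K1 and Tap2 (0.919) and lowest between H2-D1 and Psmb8 (0.482), with 0.841 between the heavy chains and 0.874 between Psmb8 and Psmb9. Of 2714 genes, those most like the mean of the members were Gnb2 (r = 0.960), Ubl3 (0.944), Wsb1 (0.942), Dync1i2 (0.938), Cd164 (0.928), Gnb1 (0.927), Adprh (0.925), Socs3 (0.923), Gsdmd (0.916) and Crlf2 (0.916). The sums share libraries and differ in depth, so these values are a description. They also include the erythroid-like cells of ConA+Veh and ConA+TCDD, where Tap2 had 0 and 1 UMIs and Tap1 2 and 1. The hepatocyte-like cells of ConA+FICZ are included too. The part of these low sums in the values of r was not tested.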

How the data were processed

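Per the labels and the study's methods, libraries were made with the 10x Genomics 5′ kit, and the submitters' processing notes name bcl2fastq, Cell Ranger 3.0.2 and mm10. The authors deposited UMI counts for each gene in each barcode without normalizing them, and these counts were used with no cell left out. The 10 genes, the other lists and the comparisons were chosen with earlier results of these data known. A cell went to the class with most distinct markers, without a tie and with at least 2 (neutrophil-like 3, plasma cell-like 4). Hepatocyte-like cells had at least 5% and erythroid-like cells at least 20% of their UMIs in that list. This rule was set after the data were seen. No doublet caller was run, so doublets may be present. UMIs were summed per class and library with at least 30 cells and divided by the class total. Intervals were exact (Poisson for levels, binomial for shares and ratios) at 95%. No test was made because each group has 1 library. Named genes are the 10 members, listed genes past 1.5-fold or needed beside them, and the 10 genes with the highest correlation with the members' mean standardized log2(CPM + 10) among genes of at least 50 CPM. H2-T10 was not analysed here. One listed regulator is not reported here. Promoters are RefSeq sequences for GRCm38. Clustering used 2000 variable genes, 30 components, 15 neighbours and Leiden resolution 1. The fold rule was checked on simulated data. Software: matplotlib 3.10.9, leidenalg 0.10.2, igraph 0.11.9, scikit-learn 1.9.0, pandas 2.3.3, scipy 1.17.1, numpy 2.4.6 and Python 3.11.15.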

Additional observations from a re-analysis of the deposited data

How the results depend on the processing

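No paired analysis was possible because each group has 1 library, so no spread between animals is known and counting error is the only error given. Depth differs most between Naïve and the ConA libraries. Below are the numbers of members past 1.5-fold that differ from the report by over 1.5 times, from or to 0, or in direction. Smaller changes are not listed, and no share of all genes is given beside these numbers. Counted per cell with no correction for depth, ConA+Veh over Naïve gave 9, 6, 6 and 6 members in B-, T-, NK- and phagocyte-like cells, all higher, where H2-D1 and Tap2 turned to 0.53 and 0.59 in B-like and 0.11 and 0.082 in NK-like cells and H2-K1, H2-D1, B2m, Tap2 and Nlrc5 to 0.41, 0.41, 0.89, 0.27 and 0.44 in T-like cells, and ConA+TCDD over ConA+Veh gave 3 in T-like and 1 in phagocyte-like cells. Averaging over cells after scaling every cell to 10000 UMIs, ConA+Veh over Naïve gave 2 higher in NK-like cells, ConA+TCDD gave 3 in T-like and 1 in phagocyte-like cells, and ConA+FICZ 3 in phagocyte-like cells. Thinned to 1000 UMIs, ConA+Veh over Naïve gave 2, 3 and 1 in B-, T- and NK-like cells, ConA+TCDD 2 in T-like and 0 in NK-like cells, and ConA+FICZ 1 in phagocyte-like cells. Totals without ribosomal protein and mitochondrial genes, and centring on the median gene, each gave 0 in T-like and 1 in phagocyte-like cells for ConA+TCDD. Leaving out cells over 10% mitochondrial UMIs or under 200 genes, or using clusters in place of markers, gave 0 in T-like cells for ConA+TCDD. Without cycling cells, ConA+TCDD gave 5 in T-like, 0 in NK-like and 1 in phagocyte-like cells, ConA+Veh over Naïve 1 in NK-like and ConA+FICZ 2 in phagocyte-like cells. At 2-fold, ConA+Veh over Naïve gave 1, 0 and 0 in B-, NK- and phagocyte-like cells and ConA+TCDD 0 in T- and NK-like cells. The other 4 alternatives were added after the data were seen. In cells with 2000 to 8000 UMIs, ConA+Veh over Naïve gave 0, 0 and 4 in T-, NK- and phagocyte-like cells (Nlrc5 0.062 in T-like cells), ConA+TCDD 5 in T-like and 0 in NK-like cells, and ConA+FICZ 1 in T-like and 1 in phagocyte-like cells. With a Cd52 UMI as well, the same comparisons gave 0, 1 (higher) and 4 (Nlrc5 0.074), 3 and 0, and 1 and 1. Without cells that held a marker of another main class, ConA+TCDD gave 0 in T-like and 1 in phagocyte-like cells and ConA+FICZ 2 in phagocyte-like cells, and without cells that held an erythroid or granulocyte progenitor marker ConA+FICZ gave 1 in phagocyte-like cells. At least 3 markers, a Cd52 UMI alone and no minimum of UMIs moved none of the 12 counts by over 1.5 times. The cause of these differences was not tested.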
